A study of Homo sapiens with 24 samples.

Results

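The 47 genes described here carry out or time the copying of DNA in S phase. They were chosen by name as origin licensing factors, helicase subunits, polymerases, clamp proteins, nucleotide-supplying enzymes, chromatin factors of the fork, and the regulators that switch them on, and all 47 were found among the 43037 genes of the deposited table. Cap analysis gene expression (CAGE-Seq), which counts sequenced 5′ ends of capped RNA, was used on 4 lines of glioblastoma origin, namely DBTRG-05MG, T98G, U251MG, and U87MG, each as 2 stable variants with 3 libraries, 24 in all. “WWOX” cells were transduced with a pLenti-GIII-CMV-GFP-2A-Puro lentivirus that carries WWOX behind the CMV promoter, and “Vec” cells with a Puro-Blank control lentivirus. Both variants of every line went through puromycin selection, so a variant may descend from few transduced cells, and the 2 variants of a line differ in their selection history as well as in the transgene. T98G was grown in MEM, DBTRG-05MG in RPMI 1640, and U87MG and U251MG in EMEM, so that for T98G and for DBTRG-05MG line and medium cannot be told apart. Depth ran from 10756072 to 16953689 tags per library (median of 14584829), and values are CPM, the tags of a gene scaled to the total of its library.

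Replication starts in G1, when the origin recognition complex (ORC), CDC6, and CDT1 load the MCM helicase onto DNA. In S phase CDC45 and the GINS complex turn the loaded helicase into a moving one, primase and the polymerases copy both strands, the RFC complex places the PCNA ring that holds the polymerases, and ribonucleotide reductase with thymidine kinase supplies the building blocks. Many of these genes are transcribed together at the G1/S boundary, when E2F factors are released from the RB protein. Proliferating glioblastoma cells keep this program on, and a bulk measurement of it mixes the share of cells in S phase with the amount of RNA in each such cell, which cannot be told apart here.

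The overexpressed gene was looked at first. WWOX, an oxidoreductase with WW domains that is studied as a tumor suppressor, stood at 40.1, 33.9, and 39.8 CPM in U87MG “Vec” and at 66.0, 61.3, and 61.0 CPM in U87MG “WWOX”. In DBTRG-05MG it stood at 20.4, 22.2, and 21.3 CPM in “Vec” and at 32.0, 28.2, and 28.0 CPM in “WWOX”. The “WWOX” libraries lay above all “Vec” libraries in these 2 lines. In T98G, with 38.6, 57.2, and 34.2 CPM against 45.1, 61.8, and 60.0 CPM, the variants overlapped. In U251MG the 3 “Vec” libraries held 31.4, 36.8, and 32.1 CPM, while the libraries labelled “WWOX” held 56.7, 17.4, and 38.0 CPM. The second of these lay below every “Vec” library, against its label, and without the first of them the log2FC in U251MG was -0.30. The log2FC of WWOX was 0.66 in U87MG, 0.39 in DBTRG-05MG, 0.38 in T98G, and -0.01 in U251MG, with a standard error of 0.22 in each line, and none passed an adjusted p of 0.05 in limma (adjusted p = 0.136, 0.77, 0.553, and 1). The standard error was the same in each line because limma fitted a single variance per gene over all groups, the U251MG libraries included. With a model per line it was 0.11 in U87MG at the same log2FC (adjusted p = 0.0612 in limma). Without the library labelled U251MG “WWOX” 1 WWOX passed in U87MG, at the same log2FC of 0.66 (adjusted p = 0.0462). The transgene is read from a viral promoter in vector sequence, and how its tags were counted is not given in the sources used here. The study reports that the efficiency of transduction was established by Western blot on extracted protein.

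Of 14 marker genes of glial and other cell types, 6 reached the level needed for testing. OLIG2, SOX2, NES, and MBP were among the 14, and their values are not given here. VIM, an intermediate filament of glial and mesenchymal cells, was present in all 24 libraries, at a group mean between 14.9 ± 0.398 CPM (SD) in T98G “Vec” and 60.4 ± 11.4 CPM in U87MG “WWOX”. GFAP and S100B, the usual astrocytic markers, were high in U251MG (2655 ± 558 and 254 ± 94.6 CPM in “Vec”), with group means of GFAP of at most 6.12 CPM in the other 3 lines. The library labelled U251MG “WWOX” 1 stood apart from its group, with 114 CPM of GFAP against 2506 and 3226 CPM in the other 2, and the log2FC of named members in U251MG are also given without it. It also held the most WWOX of its group. The runs without it keep the library labelled “WWOX” 2, which lay below every “Vec” library in WWOX. In them the log2FC of WWOX was -0.30, so they do not compare raised with unraised WWOX. Markers of leukocytes, endothelium, epithelium, and neurons (PTPRC, AIF1, PECAM1, VWF, EPCAM, KRT5, and RBFOX3) did not exceed 0.914 CPM in any library.

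Promoter sequences are shown for 4 genes, 3 of which hold the letters by which E2F factors are usually recognized and 1 of which does not. They were chosen after the values had been seen, since MCM6, MCM3, and E2F1 were among the genes that differed most between the lines and RFC1 was the member with the largest log2FC between “WWOX” and “Vec” in 2 lines. Capitals mark matches to TTTCCCGC, TTTCGCGC, TTTGCCGC, or TTTGGCGC on either strand, in RefSeq promoters of GRCh38.p14, from 200 bases before the start of transcription to 20 after it. All 4 genes lie on the minus strand, at chr2:135876424-135876643 (MCM6), chr20:33686366-33686585 (E2F1), chr6:52284723-52284942 (MCM3), and chr4:39366343-39366562 (RFC1), and the sequences read 5′ to 3′ along the gene.
MCM6: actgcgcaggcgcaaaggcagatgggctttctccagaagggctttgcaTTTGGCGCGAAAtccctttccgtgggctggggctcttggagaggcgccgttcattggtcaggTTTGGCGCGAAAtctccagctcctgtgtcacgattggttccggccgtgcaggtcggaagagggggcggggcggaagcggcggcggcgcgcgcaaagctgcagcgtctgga
E2F1: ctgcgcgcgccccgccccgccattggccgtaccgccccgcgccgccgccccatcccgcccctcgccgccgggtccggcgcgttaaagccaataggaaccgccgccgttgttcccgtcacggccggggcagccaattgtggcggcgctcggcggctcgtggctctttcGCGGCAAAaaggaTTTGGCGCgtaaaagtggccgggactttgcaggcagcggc
MCM3: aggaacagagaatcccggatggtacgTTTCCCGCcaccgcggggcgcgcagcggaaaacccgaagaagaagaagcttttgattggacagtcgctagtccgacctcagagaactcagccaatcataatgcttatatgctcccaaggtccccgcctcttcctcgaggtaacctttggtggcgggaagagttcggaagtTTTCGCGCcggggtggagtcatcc
RFC1: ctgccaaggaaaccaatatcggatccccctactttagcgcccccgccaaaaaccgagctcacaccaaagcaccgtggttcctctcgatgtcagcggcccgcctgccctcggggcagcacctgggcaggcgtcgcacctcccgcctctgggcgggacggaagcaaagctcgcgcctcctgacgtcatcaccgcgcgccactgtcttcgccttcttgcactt
MCM6, a subunit of the replicative helicase, held the motif at 2 places, and at both of them a match on one strand ran into a match on the other. E2F1, itself an E2F factor, and MCM3 held 2 places each, and RFC1, the large subunit of the clamp loader, held none. Over the 300 bases from 250 before to 50 after the start, 19 of the 40 members with a RefSeq promoter (47.5%) held at least 1 such match, against 3.99% of 27305 genes. The CCAAT box (CCAAT on either strand) was found in 62.5% of these members and in 39.7% of all genes. The TTTGAA element known from genes of G2 and mitosis was found in 2.5% of the members, in 18.2% of all genes, and in 70% of 20 promoters of a list of G2/M genes. The median GC content was 65.7% over the 51 promoters of the members and 58.7% over all 35116 promoters. The shares of promoters with a match were not adjusted for it. A match is a string of letters and not a measured binding site.

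Of the 47 genes, 44 reached 5 CPM in at least 1 library and were tested beside 12327 genes in all. The other 3 were GINS3, a helicase subunit, and POLA2 and PRIM1, subunits of the polymerase alpha and primase complex. They had at most 0.318, 0.593, and 0.716 CPM in any library, which is at most 4, 8, and 9 tags, although dividing cells need all 3. POLA2 and PRIM1 overlap other annotated genes on their own strand, and whether their tags were assigned to those was not tested. Of the 47 genes, 14 overlap a gene on the same strand and 17 overlap none, and 9, among them PCNA, RRM2, and RPA2, have annotated pseudogenes that can share reads with them.

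The tested members spanned wide ranges over the 24 libraries. RRM2, the regulated subunit of ribonucleotide reductase (GRCh38, chr2:10120698-10211725, plus strand), ran from 4.18 CPM in the library labelled U251MG “WWOX” 1 to 484 CPM in U87MG “Vec” 2, a ratio of 116. TK1, the cytosolic thymidine kinase (chr17:78174091-78187233, minus strand), ran from 4.25 to 326 CPM between the same libraries, and E2F2, an activating E2F factor, from 0.274 to 21.2 CPM. At the other end SLBP, which binds histone mRNA, ranged from 77.8 to 234 CPM, a ratio of 3.01, and POLD2, a subunit of polymerase delta, from 117 to 372 CPM. The library labelled U251MG “WWOX” 1 held the lowest value of MCM2, MCM5, CDC45, GINS2, TK1, RRM2, UHRF1, E2F1, and E2F2, and U87MG “Vec” 2 held the highest value of most of these.

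**Figure D1:**
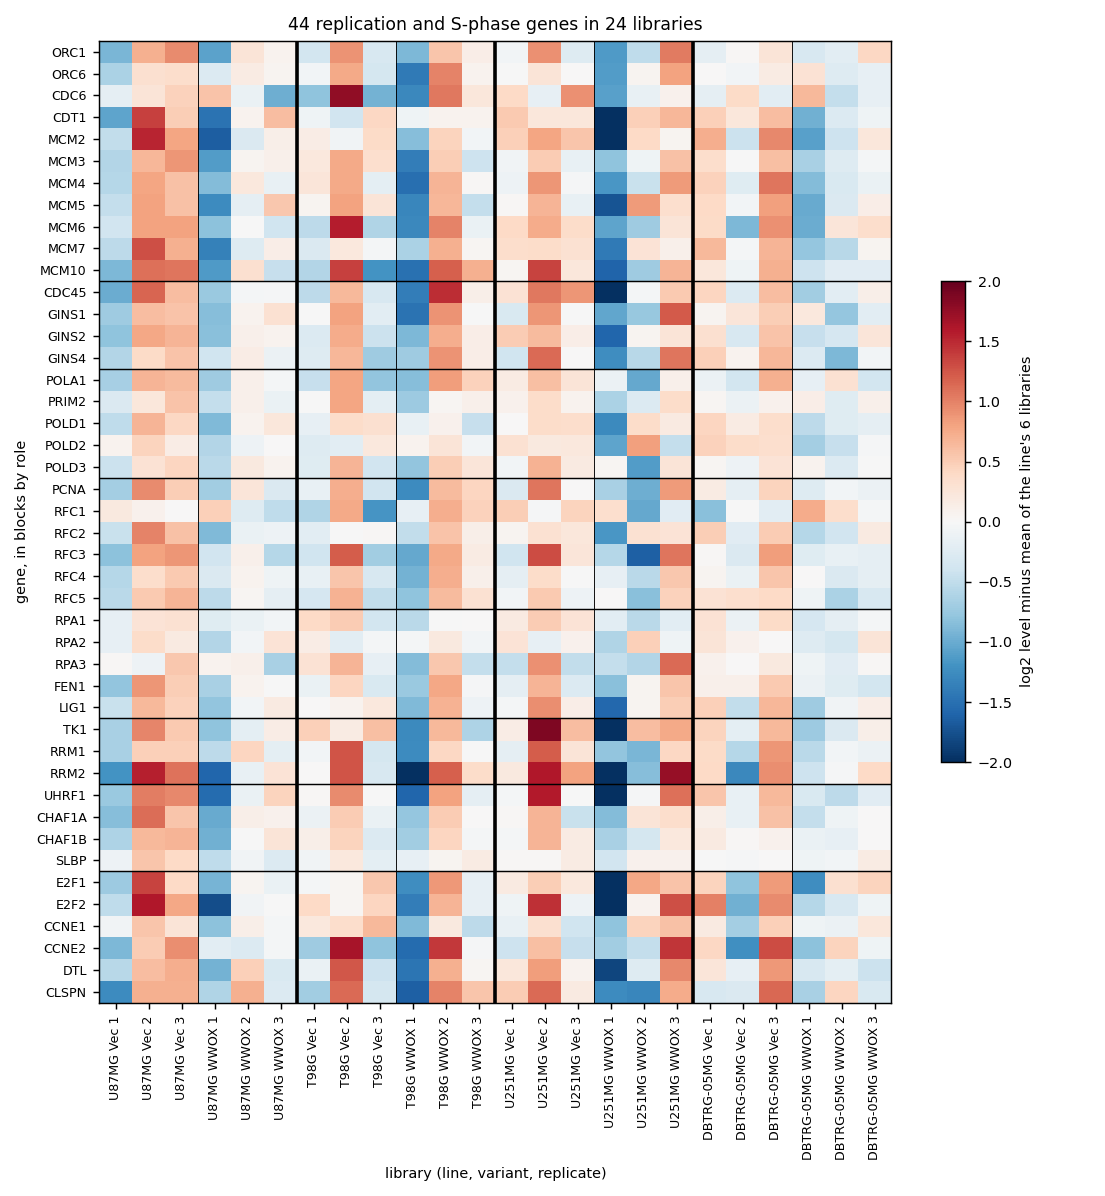
Each row is a tested gene and each column a library, and color gives the log2 level (scaled CPM plus 0.5) minus the mean of the 6 libraries of the same line. Whole columns are red or blue, as in U87MG “Vec” 1, where 42 of 44 genes had the lowest value of the 3 “Vec” libraries.

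The members went up and down together from one library to the next, also within a group. In U87MG “Vec” the median of the 44 genes, on a log2 scale relative to the mean of the 6 libraries of the line, was -0.58, 0.68, and 0.57 in the 3 libraries, and in U87MG “WWOX” it was -0.80, 0.06, and -0.03. In U87MG “Vec” 1 only 3 of 44 genes were above the line mean, while in “Vec” 2 and 3 it was 43 and 44 genes. U87MG “Vec” 1 held the lowest “Vec” value for 42 of 44 members, whereas over all tested genes the same library was lowest for 36.4%.

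The other lines showed the same kind of swing. In T98G the medians were -0.12, 0.69, and -0.29 in “Vec” and -0.90, 0.68, and 0.03 in “WWOX”, so that the span within “WWOX” was 1.58. In U251MG they were 0.02, 0.67, and 0.15 in “Vec” and -1.07, -0.20, and 0.53 in the libraries labelled “WWOX”, with a span of 1.60 among the latter. DBTRG-05MG had the smallest span among “WWOX” libraries (0.33), with 0.29, -0.13, and 0.60 in “Vec” and -0.37, -0.24, and -0.04 in “WWOX”. In all 4 lines the first “WWOX” library was the one in which most members were lowest of the 3 (39, 41, 33, and 27 of 44 genes). The median over all tested genes stayed between -0.03 and 0.03 in each library.

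The median of genes of later cell cycle steps had the same sign in most libraries. The 23 tested G2/M genes had medians of -1.06, 0.91, and 0.48 in the 3 U87MG “Vec” libraries and of -2.64, -0.65, and 0.97 in the 3 libraries labelled U251MG “WWOX”. In the first of the latter, the 55 tested replication-dependent histone genes, which package newly made DNA, had a median of -2.24, and none of the 55 was above the line mean. MKI67, a nuclear antigen of cycling cells, had 2.68, 8.30, and 48.1 CPM in these 3 libraries and 21.4, 143, and 50.4 CPM in U251MG “Vec”. In DBTRG-05MG the lists parted, since the first “WWOX” library had a G2/M median of 0.23 with a member median of -0.37 and a histone median of -0.73. The median of the 18 tested genes of the RB pathway and the CDK inhibitors lay between -0.15 and 0.23 in all 24 libraries, while their median within-group SD was 0.48. Why the libraries of a group differed was not tested.

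**Figure D2:**
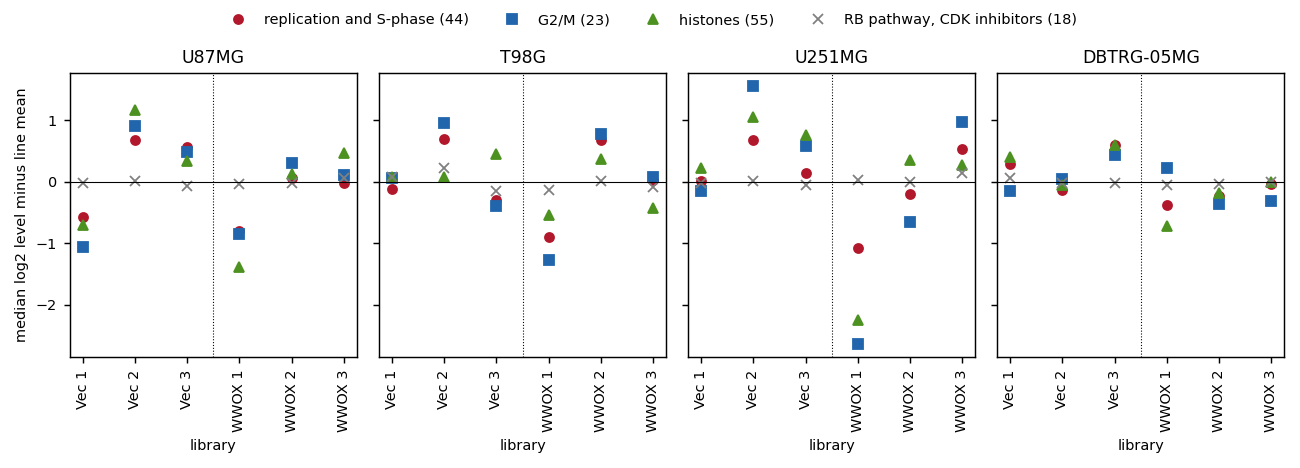
Points give, for each library of a line, the median log2 level of 4 gene lists minus the mean of the 6 libraries of that line, with the number of tested genes in parentheses. The red circles of U251MG reach from -1.07 to 0.67 within 6 libraries, and the blue squares and green triangles are lowest and highest in the same 2 libraries, while the gray crosses stay near 0.

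The spread between replicates was larger than for most genes. The within-group SD, pooled over the 8 groups on the log2 scale, had a median of 0.68 over the members and of 0.40 over all genes tested. It was above the latter in 39 of 44 members, and 36 of 44 lay above the 75th percentile of genes of like level. The largest values belonged to RRM2 (1.43), TK1 (1.14), E2F2 (1.09), CCNE2 (1.05), a cyclin that drives cells into S phase, and UHRF1 (1.03), which maintains DNA methylation behind the fork. The smallest belonged to SLBP (0.21), RPA1 (0.26) and RPA2 (0.31), subunits of the complex that covers single-stranded DNA, PRIM2 (0.37), and POLD2 (0.40). The median SD was 0.82 in the 17 tested members with an E2F match in the promoter and 0.53 in the 20 without one, with RRM2 and TK1 among the latter. This split is given as a description only.

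**Figure D3:**
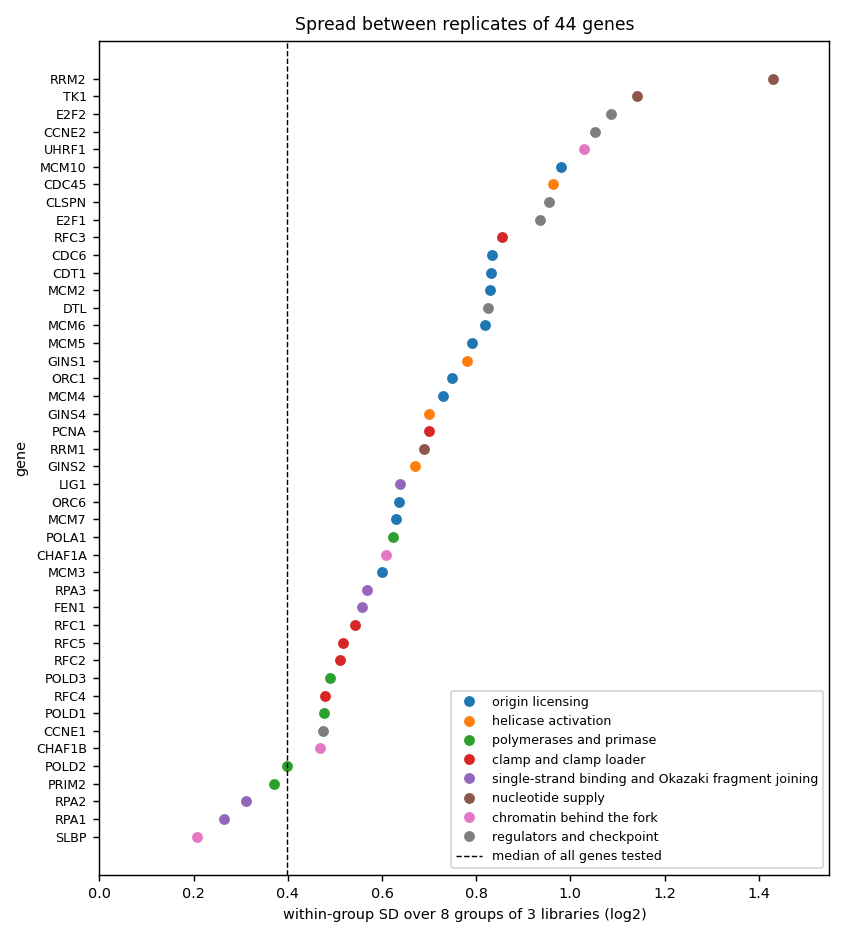
The within-group SD of log2 level of each of the 44 tested genes is plotted with the role of the gene in color, and the dashed line marks the median of all genes tested (0.40). RRM2 and TK1 stand at the top and 5 genes, from POLD2 down to SLBP, reach or stay below the line.

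Whether “WWOX” cells differed from “Vec” cells in these genes was asked line by line. No member passed the threshold in any line, neither in limma nor in edgeR, and most members had lower mean levels in “WWOX”. In U87MG 44 of 44 members had a negative log2FC, with a median of -0.48. In T98G it was 31 members with a median of -0.16, in U251MG 41 members with a median of -0.54, and in DBTRG-05MG 40 members with a median of -0.38. Over all genes tested the medians lay between -0.04 and 0.00. The background of calls was low as well: of all genes, 3.2% passed in U87MG, 1.14% in T98G, 1.02% in DBTRG-05MG, and 0.316% in U251MG. The last of these was 39 genes, and without the library labelled U251MG “WWOX” 2 it was 557 genes, with POLD2 as the 1 member among them. The members with an unadjusted p under 0.05 numbered 2 of 44 in U87MG (SLBP and MCM7), 3 in U251MG (RPA1, TK1, and CDC45), 1 in T98G (CCNE1), and 1 in DBTRG-05MG (POLD2), where all genes reached 11.5% in the first 3 of these lines and 7.63% in the last. The median standard error of a member was 0.50, against 0.32 for all genes.

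These medians depended on single libraries. Without “WWOX” 1 the median in T98G was 0.23 and only 11 of 44 members were lower, and without “Vec” 2 it was 0.06. Without the library labelled “WWOX” 1 the median in U251MG was -0.06 with 25 members lower, without the one labelled “WWOX” 2 it was -0.54 with 40 lower, and without the one labelled “WWOX” 3 it was -0.96 with 44 lower. It was -0.34 in edgeR and -0.34 without U251MG “Vec” 2. By role, the U251MG medians without the library labelled “WWOX” 1 were -0.05 for origin licensing, -0.13 for helicase activation, -0.12 for the polymerases and primase, -0.32 for the clamp and its loader, 0.13 for single-strand binding and Okazaki fragments, -0.42 for nucleotide supply, 0.02 for chromatin, and 0.32 for the regulators. In U87MG it went from -0.25 without “WWOX” 1 to -0.91 without “Vec” 1, and in DBTRG-05MG from -0.20 without “Vec” 3 to -0.69 without “Vec” 2. Counted library by library, all 3 “WWOX” values lay below all 3 “Vec” values for 1 member in U87MG (2.27%, against 9.73% of all genes) and for 1 in T98G (2.27%, against 9.21%). In U251MG it was 5 members (11.4%, against 5.01%), namely MCM2, MCM6, MCM7, POLA1, and RPA1, and in DBTRG-05MG 11 members (25%, against 10.3%), among them the polymerase subunits POLD1 and POLD2, MCM3, MCM10, CDT1, and FEN1, a nuclease that trims Okazaki fragments. Without the library labelled U251MG “WWOX” 1 it was 6 members in U251MG (13.6%, against 10.5% of all genes). With all libraries kept, no member lay the other way in any line. With 3 libraries against 3, a single such gene cannot reach an exact two-sided permutation p under 0.1.

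**Figure D4:**
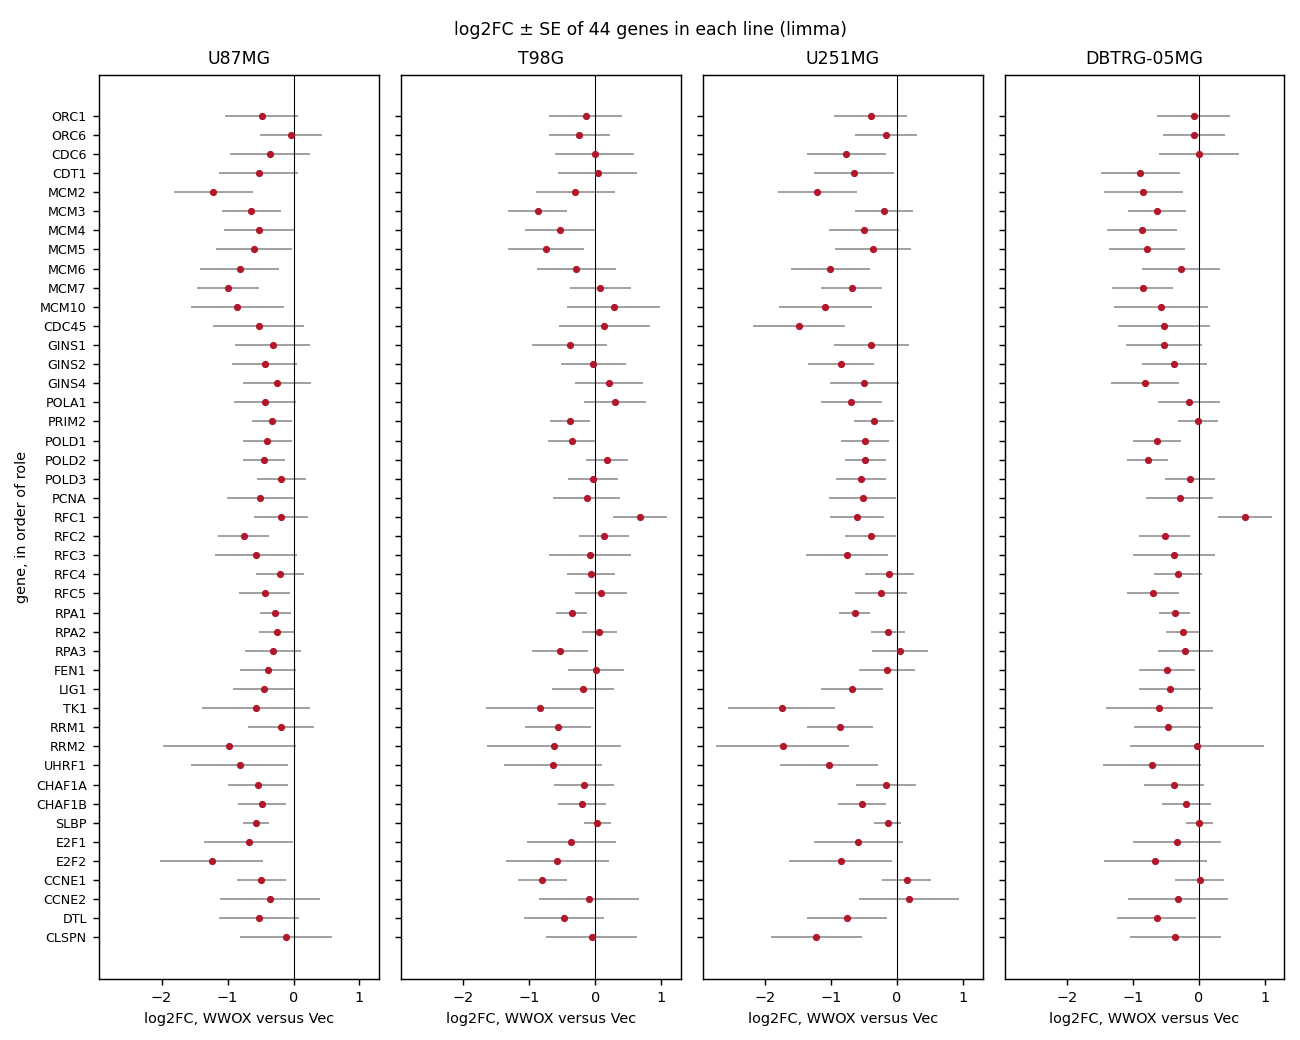
Points are the log2FC of “WWOX” versus “Vec” of each tested gene and bars its standard error from limma, in one panel per line. Points lie left of 0 for 44, 31, 41, and 40 of 44 genes, and RFC1 stands to the right in T98G and DBTRG-05MG.

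Among the origin licensing genes, all 11 were tested and their median log2FC was -0.60, -0.24, -0.65, and -0.63 in U87MG, T98G, U251MG, and DBTRG-05MG. MCM2, a helicase subunit (chr3:127598410-127622436, plus strand), had 80.7, 323, and 217 CPM in U87MG “Vec” and 40.8, 96.7, and 128 CPM in U87MG “WWOX”. Its log2FC there was -1.22 with a standard error of 0.60 (adjusted p = 0.451 in limma), one of the 2 most negative values of the line. “Vec” 1 lay within the range of the “WWOX” libraries, so the variants overlapped, and the log2FC was -1.78 without “Vec” 1 and -0.71 without “WWOX” 1. MCM3 had the most negative log2FC in T98G, -0.88 with a standard error of 0.44 (adjusted p = 0.463), from 41.3, 67.8, and 40.9 CPM to 13.0, 50.2, and 27.5 CPM. Without T98G “WWOX” 1 it was -0.40, and CCNE1 was then the most negative, at -0.56. In DBTRG-05MG the most negative values were those of CDT1, the MCM loading factor, with 52.7, 42.8, and 64.5 CPM in “Vec” and 21.5, 34.2, and 34.9 CPM in “WWOX” (log2FC of -0.89, standard error of 0.60, adjusted p = 0.868), and of MCM4 (-0.86, standard error of 0.53, adjusted p = 0.812, and -0.55 without “Vec” 3). The CDT1 libraries did not overlap in this line, whereas MCM4, with 45.5, 26.7, and 76.7 CPM against 20.1, 29.0, and 29.5 CPM, overlapped through “Vec” 2. ORC6, a subunit of ORC, had the log2FC nearest to 0 in U87MG, with 20.3, 39.2, and 45.2 CPM against 29.9, 37.3, and 34.6 CPM (log2FC of -0.03, standard error of 0.47). MCM7 was 1 of the 2 members of U87MG with an unadjusted p under 0.05 (log2FC of -0.99, adjusted p = 0.407, and -0.58 without “WWOX” 1 and -1.52 without “Vec” 1), and the gene overlaps the microRNA genes MIR25, MIR93, and MIR106B on its own strand.

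**Figure D5:**
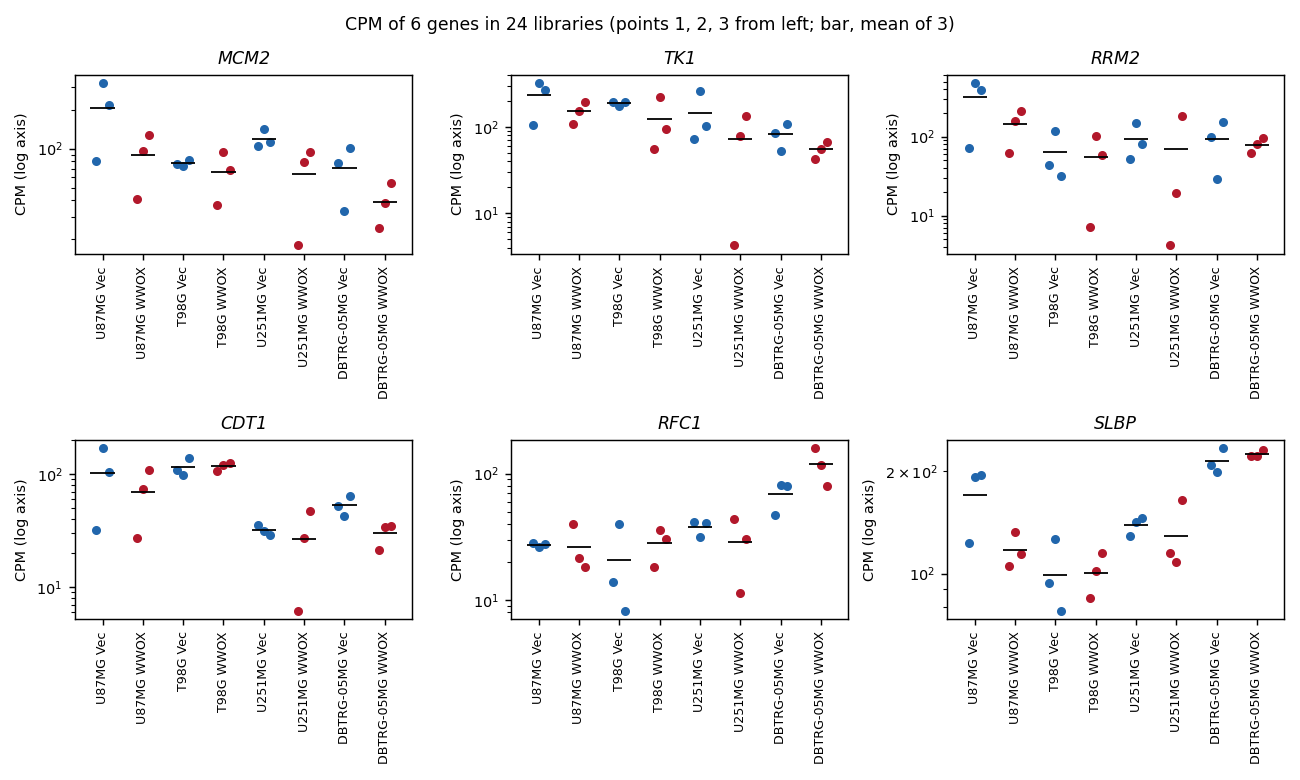
CPM on a log axis of 6 genes in the 24 libraries, with “Vec” in blue, “WWOX” in red, the 3 libraries of a group from left to right, and a bar for their mean. TK1 and RRM2 drop to 4.25 and 4.18 CPM in the library labelled U251MG “WWOX” 1, RFC1 is highest in DBTRG-05MG, and SLBP stays between 77.8 and 234 CPM.

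Of the helicase-activating genes, 4 were tested, with medians of -0.38, 0.06, -0.67, and -0.53. CDC45 stood at 26.8, 50.7, and 41.5 CPM in U251MG “Vec” and at 3.43, 17.1, and 38.8 CPM in the libraries labelled U251MG “WWOX” (log2FC of -1.48, adjusted p = 0.418). The value of “WWOX” 3 lay among those of “Vec”, and without the library labelled U251MG “WWOX” 1 the log2FC was -0.49.

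The 5 tested genes of the polymerases and primase had medians of -0.39, -0.03, -0.48, and -0.15. The libraries of POLD2 did not overlap in DBTRG-05MG, with 229, 208, and 233 CPM in “Vec” against 117, 134, and 161 CPM in “WWOX” (log2FC of -0.77, standard error of 0.32, adjusted p = 0.478), and it was the only member of this line with an unadjusted p under 0.05. It was also the 1 non-overlapping member of U87MG, with 250.5, 321, and 295 CPM against 181, 233, and 252 CPM. In CPM as deposited “Vec” 1 lay just below “WWOX” 3 there, and only the scaled values did not overlap, with 0.07, 0.45, and 0.15 in “Vec” and -0.59, -0.10, and 0.02 in “WWOX” on the log2 scale relative to the line mean. POLA1, the catalytic subunit of polymerase alpha, had one of the 2 largest values of T98G, a log2FC of 0.30 with a standard error of 0.47 (adjusted p = 0.871), from 6.33, 17.4, and 4.44 CPM to 4.56, 16.2, and 12.8 CPM. In both T98G variants the second library was the highest, and they overlapped.

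The 6 genes of the clamp and its loader had medians of -0.47, 0.01, -0.46, and -0.35. RFC1 had the largest log2FC of the members in T98G and in DBTRG-05MG. It stood at 13.8, 40.3, and 8.25 CPM in T98G “Vec” and at 18.4, 35.6, and 30.4 CPM in T98G “WWOX” (log2FC of 0.69, standard error of 0.41, adjusted p = 0.56). In DBTRG-05MG it stood at 46.8, 80.9, and 80.02 CPM in “Vec” and at 159, 117, and 80.1 CPM in “WWOX” (log2FC of 0.70, standard error of 0.41, adjusted p = 0.779). In both lines the variants overlapped, the log2FC in T98G was 0.28 without “Vec” 3 and 1.23 without “Vec” 2, and that in DBTRG-05MG was 0.46 without “Vec” 1. PCNA, the clamp itself, had 66.1, 50.4, and 89.0 CPM against 55.7, 62.3, and 53.3 CPM in DBTRG-05MG.

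The 5 genes of single-strand binding and Okazaki fragment joining had medians of -0.32, -0.19, -0.15, and -0.36. RPA1, the large RPA subunit, had little spread, and its libraries did not overlap in U251MG (52.3, 72.2, and 56.5 CPM in “Vec”, and 46.6, 25.2, and 48.5 CPM in the libraries labelled “WWOX”). The log2FC there was -0.64 with a standard error of 0.24 (adjusted p = 0.276), and -0.69 without the library labelled “WWOX” 1.

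TK1 and RRM2 had the widest errors of the members, and the nucleotide-supplying enzymes had medians of -0.57, -0.63, -1.73, and -0.47 over 3 genes. Without “WWOX” 1 the log2FC in T98G was -0.07 for RRM1, 0.46 for RRM2, and -0.40 for TK1. TK1 had 72.0, 261, and 101.5 CPM in U251MG “Vec” and 4.25, 79.5, and 135 CPM in the libraries labelled “WWOX”, which gave a log2FC of -1.75 with a standard error of 0.82 (adjusted p = 0.418). RRM2 had 51.4, 151, and 79.8 CPM against 4.18, 19.6, and 183 CPM in the same line, a log2FC of -1.73 with a standard error of 1.02 (adjusted p = 0.545). Both genes were lowest in the first of the libraries labelled “WWOX” and highest in the last, so a single group spanned more than the difference between the variants. Without the first of these libraries the log2FC was -0.18 for TK1 and -0.42 for RRM2, and without the last of them it was -2.57 and -3.04. TK1 was also among the 2 most negative members of T98G, at -0.83 with a standard error of 0.82 (adjusted p = 0.762), from 196, 177, and 193 CPM to 56.2, 221, and 94.5 CPM, and at -0.40 without T98G “WWOX” 1.

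The 4 chromatin genes had medians of -0.56, -0.19, -0.35, and -0.28. SLBP, the steadiest member, stood at 123, 192, and 195 CPM in U87MG “Vec” and at 106, 132, and 114 CPM in U87MG “WWOX”. Its log2FC of -0.57 with a standard error of 0.20 (adjusted p = 0.181) was the lowest p of the members of this line, and it passed the threshold only without “Vec” 1, where it was -0.78. In the other 3 lines the log2FC of SLBP lay between -0.14 and 0.03, with 0.02 in U251MG without the library labelled “WWOX” 1.

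The 6 regulators and checkpoint genes had medians of -0.51, -0.42, -0.67, and -0.34. Without “WWOX” 1 the log2FC in T98G was 0.17 for E2F1, 0.14 for DTL, and 0.75 for CLSPN. It was then -0.02 for E2F2 and -0.56 for CCNE1. E2F2 had 4.62, 21.2, and 13.2 CPM in U87MG “Vec” and 1.90, 6.72, and 7.03 CPM in “WWOX” (log2FC of -1.24, standard error of 0.78, adjusted p = 0.659, and -0.67 without “WWOX” 1). CCNE1, the other E-type cyclin, had an unadjusted p under 0.05 in T98G, with 10.4, 12.7, and 12.8 CPM against 4.46, 10.2, and 6.27 CPM (log2FC of -0.81, standard error of 0.37, adjusted p = 0.408), and it was the only T98G member without overlap. The cyclins were not lower in every line. In U251MG CCNE2 and CCNE1 had the 2 largest values, 0.18 and 0.15, with standard errors of 0.76 and 0.37 (adjusted p = 0.971 and 0.941), and without the library labelled U251MG “WWOX” 1 they were 0.57 and 0.59. CCNE2 stood at 3.57, 8.51, and 3.48 CPM in U251MG “Vec” and at 3.36, 2.72, and 17.2 CPM in the libraries labelled “WWOX”, where “WWOX” 3 alone lay above “Vec”. CCNE1 stood at 7.38, 11.5, and 6.23 CPM in U251MG “Vec” and at 5.35, 9.08, and 15.4 CPM in the libraries labelled “WWOX”, and in DBTRG-05MG, with 6.35, 3.15, and 8.69 CPM against 5.84, 5.57, and 6.44 CPM, its log2FC was 0.01. CLSPN, an adaptor of the replication checkpoint, had the next nearest to 0 in U87MG, with 3.62, 15.1, and 17.1 CPM against 6.79, 16.02, and 7.88 CPM (log2FC of -0.11, standard error of 0.69).

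Taking the mean of the 4 lines, which was added after the values of each line had been seen, gave a median log2FC of -0.41 over the members, and 43 of 44 were lower. The exception was RFC1, at 0.15. Again no member passed, with 1.78% of all genes passing, and 11 of 44 members (25%) had an unadjusted p under 0.05, against 15.4% of all genes. The lowest adjusted p belonged to RPA1 (log2FC of -0.41, standard error of 0.12, adjusted p = 0.085 in limma), lower in all 4 lines, and MCM2 (-0.89, standard error of 0.30, adjusted p = 0.146). RPA1 passed without U87MG “Vec” 1, without T98G “Vec” 3, and without the library labelled U251MG “WWOX” 2, and MCM2 and POLD2 in the last of these. Altogether 27 of 44 members (61.4%) had a negative log2FC in each of the 4 lines, against 10.6% of all genes. This count rested on single libraries, since it was 9 members (20.5%, against 10.3%) without T98G “WWOX” 1, 17 (38.6%, against 6.84%) without the library labelled U251MG “WWOX” 1, 18 (40.9%, against 10.8%) without T98G “Vec” 2, and 36 (81.8%, against 10.8%) without T98G “WWOX” 2. MCM2 to MCM6 were among the 27, but in U251MG without the library labelled “WWOX” 1 the log2FC was 0.16 for MCM3 and 0.41 for MCM5, and of these 5 genes MCM3 and MCM5 were the ones still lower in each line without T98G “WWOX” 1. CCNE1, RFC1, and SLBP were lower in only 2 lines. When the log2FC of one line was set against the mean of the other 3, no member passed in any line, where 2.39% of all genes passed for U87MG, 1.54% for T98G, 0.982% for DBTRG-05MG, and 0.422% for U251MG. The median standard error of a member in these differences was 0.58, so that only large differences could have passed.

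Chromosome-wide shifts touched a few members. In U87MG the largest median log2FC were 3.65 on chromosome Y, over 10 genes, and 0.28 on chromosome 18, over 177 genes. Neither chromosome holds a member, and what underlies these shifts was not tested. In T98G the genes of chromosome 17 had a median log2FC of -0.35 over 736 genes, and CDC6, RPA1, and TK1 lie there. The T98G log2FC of these members were -0.01, -0.36, and -0.83, so RPA1 stood near the median of its chromosome. In DBTRG-05MG the median was 0.21 on chromosome 10, which holds MCM10, and -0.20 on chromosome 12, which holds RFC5. Relative to the chromosomes the median of the members was -0.07 in T98G and -0.36 in DBTRG-05MG.

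The baseline of the lines was compared in the “Vec” libraries, each line against the mean of the other 3. These comparisons share their libraries. In U87MG 40 of 44 members lay above the mean of the other lines. There, 11 of 44 members (25%) passed as higher, against 19.9% of all genes, 1 (2.27%) passed as lower, against 25.2%, and the median difference was 0.67. The 3 largest were helicase subunits. MCM6 had 61.7 ± 26.2 CPM (SD) in U87MG, 21.3 ± 4.38 in U251MG, 15.4 ± 9.52 in DBTRG-05MG, and 11.2 ± 11.7 in T98G, and the log2 difference of U87MG was 2.22 with a standard error of 0.49 (adjusted p = 0.000718 in limma). For MCM5 it was 1.62 (adjusted p = 0.00735), with 144 ± 59.8 CPM in U87MG and between 43.2 ± 16.2 and 63.0 ± 24.0 CPM in the other lines. For MCM3 it was 1.34 (adjusted p = 0.00453), with 131 ± 65.0 CPM in U87MG and between 44.8 ± 12.7 and 65.0 ± 21.0 CPM elsewhere. RPA1 was the member that was lower (-0.57, adjusted p = 0.0194), at 26.3 ± 5.69 CPM. The count for U87MG rested on single libraries, since 24 members were higher without “Vec” 1 (18.1% of all genes), 5 without “Vec” 2 (17.1%), and 5 without “Vec” 3 (15.5%). The median was 1.19, 0.46, and 0.51 in these 3 cases. MCM6 kept its call in each of them, MCM5 lost it without “Vec” 2, MCM3 without “Vec” 3, and RPA1 without “Vec” 1.

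In T98G 2 members (4.55%) were higher, against 20.1% of all genes, and 4 (9.09%) lower, against 20.4%, with a median of -0.17. CDT1 was higher by 1.25 (adjusted p = 0.0466), at 115 ± 20.3 CPM, and PRIM2, the regulatory primase subunit, by 0.64 (adjusted p = 0.0454), at 19.4 ± 9.75 CPM, and both calls were lost without a filter and in most runs that left out 1 library. MCM6 (-1.48, adjusted p = 0.0189, not called in edgeR), RFC1 (-1.15, adjusted p = 0.00828), and RPA2 (-0.93, adjusted p = 0.00124) had the 3 largest decreases, and the lower level of RPA2 was seen in all 3 libraries (46.7, 40.5, and 36.7 CPM, with at least 53.1 CPM in every other “Vec” library). Without T98G “Vec” 1 the calls numbered 2 in all, both lower (15.9% of all genes), and without “Vec” 3 they numbered 3, of which 2 were lower (15.7%). The calls of MCM6 and RFC1 were lost in both cases, and that of RPA2 was kept without any one of the 3 libraries. The median was -0.07 without “Vec” 1, -0.42 with 35 members lower without “Vec” 2, and 0.05 with 20 members lower without “Vec” 3.

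In U251MG 1 member (2.27%) was higher, against 16.5% of all genes, and 1 lower, against 18.4%, and the median was 0.01. RPA1 was higher by 0.80 (adjusted p = 0.00232), at 52.3, 72.2, and 56.5 CPM, above every other “Vec” library. CDT1 was lower by 1.40 on the log2 scale (-1.40, adjusted p = 0.03), at 35.1, 31.4, and 29.0 CPM. Without any one of the U251MG “Vec” libraries RPA1 was the 1 member called, as higher. Without “Vec” 1, 2, and 3 in turn, 12.6%, 13.8%, and 12.7% of all genes were higher, and 15.2%, 15.7%, and 14.7% lower. The median of the members was -0.21 with 31 members lower without “Vec” 2, and 0.11 without “Vec” 1.

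In DBTRG-05MG 37 of 44 members lay below the mean of the other lines, with 2 members (4.55%) higher, against 22.7% of all genes, 7 (15.9%) lower, against 19.9%, and a median of -0.52. The 3 largest decreases were those of E2F1 (-1.38, adjusted p = 0.048, a call that was lost in edgeR), GINS2, a helicase subunit (-1.22, adjusted p = 0.018), and POLD1, the catalytic subunit of polymerase delta (-1.20, adjusted p = 0.00252). POLD1 had 22.5, 17.96, and 23.6 CPM in DBTRG-05MG and at least 31.0 CPM in every other “Vec” library, without overlap. RFC1 was higher by 1.20 (adjusted p = 0.00577), at 69.2 ± 19.4 CPM against 27.5 ± 1.21, 20.8 ± 17.1, and 37.9 ± 5.44 CPM in U87MG, T98G, and U251MG, and SLBP by 0.54 (adjusted p = 0.0118), at 214 ± 18.3 CPM. Without “Vec” 2, the library in which 36 of 44 members were lowest, 2 members passed as lower (16.9% of all genes), 32 lay below the other lines, the median was -0.28, and the calls of E2F1 and GINS2 were lost, while without the library labelled U251MG “WWOX” 1, which is not one of the libraries compared here, 12 passed as lower (21.2% of all genes). E2F1 also lost its call without “Vec” 1, without a filter, with CPM as deposited, and with the correction for GC content and length.

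Other genes around the same program gave few calls between “WWOX” and “Vec”. Of 39 tested genes of a second list of replication and S-phase factors, 1 passed in U87MG and none in the other lines. Over all genes 3.2% passed in U87MG. The medians of this list were -0.21, -0.24, -0.36, and -0.15 (in U251MG -0.05 without the library labelled “WWOX” 1). The gene that passed was E2F7, a repressor of E2F targets, with 1.78, 1.47, and 2.67 CPM in U87MG “Vec” and 15.1, 14.4, and 16.7 CPM in U87MG “WWOX” (log2FC of 2.68, standard error of 0.59, adjusted p = 0.00943), a call that was lost in limma-voom and without “Vec” 2. The activating E2F1 and E2F2 were not called in that line. Of 23 G2/M genes none passed in any line (medians of -0.12, -0.36, -1.24, and -0.17). In U251MG 7 had an unadjusted p under 0.05 (the share of all genes is given above). Without the library labelled U251MG “WWOX” 1 the G2/M median there was -0.41 and 0 genes had such a p, against 12% of all genes. Of 18 genes of the RB pathway and the CDK inhibitors none passed either (medians of 0.05, -0.12, 0.00, and -0.03).

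Among 55 tested histone genes 5 were lower in U87MG, 2 were lower in T98G, and 1 was higher in DBTRG-05MG. Over all genes 3.2%, 1.14%, and 1.02% passed in these lines, in either direction. In U251MG no histone gene passed (0.316% of all genes did), and 29 had an unadjusted p under 0.05 (11.5% of all genes did). The medians were -0.51, -0.37, -1.38, and -0.57. Without the library labelled U251MG “WWOX” 1 the median in U251MG was -0.45, and 3 of 55 had such a p, against 12% of all genes. In U87MG H2BC6 fell from 124, 458, and 294 CPM to 3.85, 6.99, and 9.91 CPM (log2FC of -5.26, adjusted p = 1.01e-06), and H3C10 (-3.26, adjusted p = 0.0213), H4C4 (-2.45, adjusted p = 0.022, not called in edgeR), and H4C13 (-2.12, adjusted p = 0.000539) fell too. The calls of H3C10 and H4C4 were each lost when U87MG “Vec” 2, “Vec” 3, “WWOX” 1, or “WWOX” 2 was left out, and those of H3C10, H4C4, and H4C13 with a model per line, at the same log2FC. In T98G H2AC12 fell from 139, 154, and 138 CPM to 6.32, 2.97, and 0.462 CPM (log2FC of -5.69, adjusted p = 0.000826), and so did H2BC12 (-5.55, adjusted p = 5.17e-07). With a model per line neither of these 2 passed, at the same log2FC. In DBTRG-05MG H4C6 rose from 3.34, 2.25, and 3.95 CPM to 85.6, 96.9, and 113 CPM (log2FC of 4.69, adjusted p = 1.21e-06). These changes concerned single histone genes, whose near-identical copies can share reads, and the part of such sharing in them was not tested.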

How the data were processed

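CAGE-Seq libraries of 8 groups (4 lines, “Vec” and “WWOX”, 3 libraries each) were used. According to the submitters' notes and the study's methods, the authors mapped reads with STAR on hg38, counted tags on genes, and deposited CPM. Their annotation is not given in the sources used here. All deposited CPM values were whole tags within 0.01, so tags were recovered, and 0 columns were left unused. No 2 libraries were identical, and the labels call them biological replicates. In the main test a p-value sets a difference against the spread between libraries of a group, pooled over all 8 groups.

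The genes and lists were chosen with earlier results of these data known. Libraries were rescaled by trimmed mean of M-values factors (30% of M and 5% of A trimmed), 0.5 was added, and log2 values of 12327 genes with at least 5 CPM in 1 library were fitted with limma 3.58.1 (trend, 8 groups, 16 residual degrees of freedom). Two-sided p were adjusted by the Benjamini-Hochberg method over all genes, with a threshold of 0.05. The log2FC refer to scaled CPM + 0.5. The study's own test used resampled counts, which was not repeated. Alternatives were edgeR 4.0.16 and limma-voom on the tags, other pseudocounts, no filter, unscaled CPM, a model per line, a replicate block, a correction for GC content and length, chromosome medians, and leaving out each library. The fits were also run on simulated data, of which no result is given here. Gene positions are from GENCODE (GRCh38), and the study's build, hg38, is the same assembly. Per-library values are given for WWOX and for the 2 largest rises and falls of the members in each line, called or not. Between lines the 3 largest called in each direction are named, with per-library values, with means and SD, or with the log2 difference alone. Other members were named after their values had been seen. From each of the other lists at most 4 called genes per line are named. Intervals of counting are small at this depth: 3 tags, the limit that a count of 0 allows, correspond to 0.177 to 0.279 CPM.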

Additional observations from a re-analysis of the deposited data

Results flagged for a closer look

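Among the genes named for “WWOX” versus “Vec”, in 6 cases the log2FC of “WWOX” versus “Vec” in one line differed from the mean of the other 3 lines at an adjusted p under 0.05 in limma, and none of them was a member. E2F7 differed by 2.67 in U87MG (adjusted p = 0.0383), H2BC6 by -4.70 (adjusted p = 5.17e-05) and H4C13 by -1.78 (adjusted p = 0.0178) in the same line. In T98G H2AC12 differed by -4.48 (adjusted p = 0.0264) and H2BC12 by -4.70 (adjusted p = 4.49e-05), and in DBTRG-05MG H4C6 differed by 4.36 (adjusted p = 3.32e-05). H4C13 had at most 0.398 CPM in any U251MG library, so that line could add little to its comparison. Groups of 3 libraries are too small to single out an outlying library by a test.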

How the results depend on the processing

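Of the 10 alternatives to the processing, the chromosome medians gave log2FC without a test. With the others no member passed between “WWOX” and “Vec” in a single line. The correction for GC content and length gave 1 member (RPA1) with the mean of the 4 lines and 1 (POLD2) for the difference of T98G. Leaving out 1 library gave between 0 and 1 members called in U87MG, 0 to 1 in U251MG, 0 to 3 for the mean of the 4 lines, and 0 to 1 for the difference of T98G. The median of the members in DBTRG-05MG then lay between -0.688 and -0.199, and that in T98G between -0.493 and 0.229. Between lines the members called numbered 12 in U87MG (6 to 24 without 1 library), 6 in T98G (2 to 7), 2 in U251MG (1 to 3), and 9 in DBTRG-05MG (4 to 14). Without a filter 1 member was called in U251MG. Whether the replicate numbers pair the libraries could not be decided. The correlation of deviations from the group mean was negative for 7 of the 12 pairs of like number. For numbers 1 and 2 it was 0.34 and 0.21 in U87MG and 0.43 and 0.51 in T98G. With the replicate block 19 members were called in U87MG “Vec” (18 higher and 1 lower), where 5140 of the 12327 genes were called. For T98G “Vec” the block gave 2 members higher and 6 lower, beside 4505 genes called. U251MG “Vec” then had 2 higher and 1 lower (3862 genes), and DBTRG-05MG “Vec” had 2 higher and 10 lower (4804 genes). Between “WWOX” and “Vec” the block gave 0 members in each line. Over all genes the calls between “WWOX” and “Vec” numbered 395 in U87MG, 140 in T98G, 126 in DBTRG-05MG, and 39 in U251MG, and 307, 63, 76, and 23 with the block, 328, 113, 49, and 14 in edgeR, 618, 271, 395, and 114 without a filter, 577, 315, 164, and 202 with the correction for GC content and length, and 213, 0, 38, and 3 with a model per line. CDT1 in T98G, E2F1 in DBTRG-05MG, and PRIM2 in T98G lost their calls in most runs without 1 library.

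Signs of named genes changed in the following cases. ORC6 in U87MG was 0.0298 with CPM as deposited and 0.0270 relative to the chromosome. WWOX in U251MG was 0.00659 with CPM as deposited, 0.0871 in edgeR, 0.0179 in limma-voom, and 0.0332 relative to the chromosome. CCNE1 in DBTRG-05MG was -0.0567 in edgeR. Without 1 library ORC6 and CLSPN in U87MG ranged from -0.37 to 0.14 and from -0.78 to 0.21, POLA1 in T98G from -0.0432 to 0.81, CCNE2, CCNE1, and WWOX in U251MG from -0.49 to 0.57, from -0.10 to 0.59, and from -0.30 to 0.23, and CCNE1 in DBTRG-05MG from -0.32 to 0.25. E2F7 lost its call in limma-voom (2.91) and without U87MG “Vec” 2 (2.54), H4C4 and MCM6 (between lines, in T98G) lost theirs in edgeR, and with a model per line the histone calls of T98G and those of H3C10, H4C4, and H4C13 in U87MG were lost at unchanged log2FC. The cause of these changes was not tested. With 3 libraries a group and swings of this size, the standard error of a member ranged from 0.20 (SLBP) to 1.02 (RRM2) and limited which effects could pass.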
